A study of Mus musculus with 12 samples.

Results

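Bone-marrow-derived macrophages of C57BL6/J mice, called C57BL6 below, were compared after 18 h of interleukin-4 (IL-4) and without it. In these cells 18 h of IL-4 raised genes of alternative activation (Retnla, Arg1, Rnase2a, Mgl2), the feedback inhibitor gene Socs1, the fusion gene Ocstamp and the growth factor receptor gene Flt1. It lowered 19 of 39 listed antiviral interferon genes and 11 of 16 listed interferon-inducible GTPases, where 2.95% of all genes tested fell. The lists were chosen with earlier results of these data known, so these counts are a description only. Also lowered were Cxcl9 and Cxcl10 among the CXC chemokines and the microbial sensor gene Tlr2. The members were the 4 arrays labelled C57BL6 mock or C57BL6 IL4 18h, 2 of each, out of 12 arrays in the series. Probes were kept where, in mock or at 18 h or in both, the scanner software flagged the spot as well above background on both replicate arrays, which left 26616 of 41174 probes and 17928 genes.

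Marrow came from mice 8 to 12 weeks old, and 2 males and 1 female were pooled for each sample. All cells, mock included, were grown with the macrophage growth factor CSF1 at 200 ng/ml, were given fresh medium on day 5 and were replated on day 6. On day 7 the treated cells received mouse recombinant IL-4 at 10 ng/ml for 18 h, and mock cells were incubated for 18 h without it. The other arrays held C57BL6 cells after 4 h of IL-4 and Balb/cAnNCrl cells (Balb/c below) under the same 3 conditions, 2 arrays for each. The series text describes independent experiments on different littermates, so the p-values do not measure the spread between single mice. The main fit did not pair arrays by replicate number, so any difference shared by arrays of the same number counts in its spread. A pool is a mixed-sex sample, and marrow cells grown in CSF1 are a culture model of tissue macrophages.

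IL-4 binds IL-4 receptor alpha, which pairs with the common gamma chain or with IL-13 receptor alpha 1. Janus kinases at the receptor phosphorylate STAT6, which enters the nucleus and binds paired TTC and GAA blocks spaced by 4 bases, and CISH and SOCS proteins switch such receptors off again. Macrophages exposed to IL-4 take on the alternatively activated state known from worm infection and tissue repair, with arginase, chitinase-like lectins and mannose-binding receptors. Interferon-inducible promoters often carry elements that repeat the block GAAA.

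Levels below are log2 of the processed spot signal minus the 75th percentile of the same array, so 0 is a bright probe. A change is the mean level at 18 h minus the mean level in mock, with its standard error from limma, and calls needed an adjusted p below 0.05 (Benjamini-Hochberg, over all genes tested). IL-4 changed 848 genes, 4.73% of those tested. Of these, 320 rose (1.78% of genes tested) and 528 fell (2.95%). These shares are the background for the list counts against mock below, whose own shares stand in brackets where printed. The median change over all genes was -0.05. In 49 of the rises and 35 of the falls the gene was not well above background on either array of 1 group, so its fold is only a bound. Among the other called genes 222 rises and 364 falls were at least 2-fold, and 52 rises and 35 falls at least 8-fold. The replicate levels of mock and 18 h did not overlap in any of the 848 called genes, and they did not overlap in 52.4% of all genes tested. A lack of overlap described below for a called gene is thus no further support for its call.

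**Figure D1:**
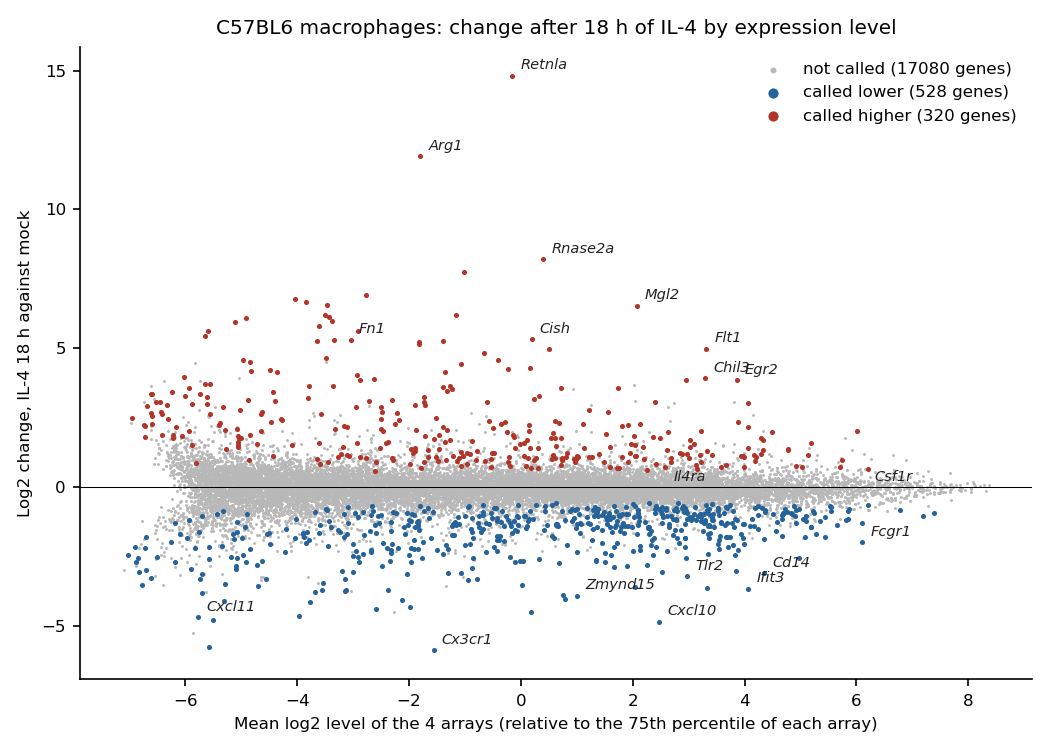
Log2 change after 18 h of IL-4 (vertical axis) against the mean log2 level of the 4 arrays (horizontal axis) for each of 17928 genes; red marks the 320 genes called higher, blue the 528 called lower, grey the rest. Rises reach farther than falls: Retnla and Arg1 lie at the top, and Cx3cr1 and Cxcl10 lie near the bottom.

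The number of calls moved with the fit and with the arrays used. With the replicate number as a block there were 3322 calls in place of 848. Deviations of mock and 18 h arrays of the same number correlated at 0.327, but the labels do not say that a number marks an experiment. Between 61.3% and 69.0% of spots were well above background on these 4 arrays. Over the brightest kept probe of each gene, replicate levels correlated at 0.981 in mock and 0.990 at 18 h. With 1 array left out the lone array of its group was assumed to vary like the other groups, and there were 375 calls without mock replicate 1, 308 without mock replicate 2, 236 without 18 h replicate 1 and 248 without 18 h replicate 2. Mock replicate 1 lay on another slide than the other 3 arrays, so 375 is also the count within 1 slide; with the slide as a block there were 1104 calls. Of 222 called genes that a fixed naming rule picked, 92 kept their call whichever array was left out, 88 kept it under each alternative setting that gave them a value, other than normexp background correction, and 35 kept it there too. Of these, 21 and 2 had no value under the filter that needs all 4 arrays above background. The normexp correction, which models background anew, left 132 calls in all, ended the call of 152 of the 222 genes and turned the sign of 13. Calls were also lost by 68 of them without a filter on dim probes, 65 with only the compared arrays fitted and 38 with median scaling; Irf9, Pf4, Shc1, Bcl6 and Relb, named below, lost theirs in 6 to 9 of the settings other than normexp and left-out arrays. Those 35 included Retnla, Arg1, Rnase2a, Flt1, Egr2, Batf3, Socs1, Il4i1, Tmem26, Itgax and Tfrc among the rises, and Cxcl10, Ifit3, Ifit2, Ifi44, Gbp6, Tlr2, Nod2, Ly6c1, Ly6i, Cxcr3, Pilrb1, Treml4 and Zmynd15 among the falls.

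The cells carried macrophage markers before and after IL-4. All 13 macrophage markers were well above background on all 4 arrays. Csf1r, the CSF1 receptor, stood at 6.17 and 6.16 in mock and 6.20 and 6.13 at 18 h, and Adgre1, which encodes F4/80, at 7.30 and 7.23 in mock and 7.44 and 7.31 at 18 h. Spi1, the macrophage transcription factor PU.1, stood at -0.05 and -0.63 in mock and 0.12 and -0.03 at 18 h. The arrays overlapped for Csf1r, and neither Adgre1 (change 0.11 ± 0.17) nor Spi1 (0.38 ± 0.22) was called. Within the list, Mrc1 rose and Cd14 and Fcgr1 fell. Summed on the linear scale, the markers came to 938 and 829 times the 75th percentile in mock and to 826 and 747 at 18 h.

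Some markers of other cell types were above background. Of 7 NK cell markers Klrb1c was above it on all 4 arrays and Ncr1, Gzma, Gzmb, Prf1 and Eomes on none. Of 7 T cell markers Cd3e, Cd4, Lck and Cd28 were above it on all 4 arrays and Cd3d and Cd3g on none, and their sum was 1.20 and 1.12 in mock and 1.396 and 1.34 at 18 h. Like the macrophage sum and an eosinophil sum given below, these sums were lower on both 18 h arrays than on both mock arrays: 7 NK cell markers from 0.163 and 0.105 to 0.0729 and 0.0616, 9 mast cell and basophil markers from 0.892 and 0.668 to 0.398 and 0.366, 6 monocyte markers from 20.8 and 18.7 to 8.77 and 7.63, 8 B cell markers from 14.3 and 9.75 to 6.48 and 4.23, and 6 megakaryocyte markers from 69.2 and 57.4 to 36.9 and 24.6. Neutrophil sums (13 markers) ran from 16.9 to 20.9 in mock and from 13.1 to 19.5 at 18 h. Dendritic cell sums (10 markers) were 177 and 134 in mock and 176 and 134 at 18 h, and erythroid sums (6 markers) ran from 0.313 to 0.377 over all 4 arrays. A linear sum mostly follows its brightest members: the dendritic cell sums hardly moved, although their member Itgax rose by 3.03 ± 0.39. In these cultures fewer cells of a type, less RNA per cell and a change in the macrophages' own RNA of these genes cannot be told apart.

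No change was called in the IL-4 receptor chains Il4ra and Il2rg or in Stat6, while feedback inhibitors rose. Il4ra, the IL-4 receptor alpha chain, stood at 2.64 and 2.53 in mock and 2.87 and 2.30 at 18 h, a change of 0.00 ± 0.32. Stat6 changed by -0.24 ± 0.18 and Il2rg, the common gamma chain, by -0.10 ± 0.20. Il13ra1, the partner chain of the receptor that IL-13 shares, fell (-2.34 ± 0.32, adjusted p = 0.0063). Ptpn6, the phosphatase SHP-1, also fell (-0.84 ± 0.15), and the adaptor gene Shc1 rose by 0.77 ± 0.18. Of 14 receptor and signalling genes tested, 1 rose (7.14%) and 2 fell (14.3%), with a median of -0.10 against -0.05 over all genes. Ptpn6 and Shc1 lost their calls when each of the 4 arrays in turn was left out (highest adjusted p per gene 0.13 to 0.277). Il13ra1 lost its call without mock replicate 2 (highest adjusted p 0.0544). Il13ra1, Ptpn6 and Shc1 lost their calls under normexp (changes of 0.59 for the rises and -2.24 to -0.43 for the falls, adjusted p 0.0631 to 0.272).

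Of 8 SOCS family genes, 3 rose (37.5%, against 1.78% of all genes tested) and none fell, with a median of 0.81. Socs1, an inhibitor of Janus kinases, stood at 0.89 and 1.15 in mock and 4.91 and 4.84 at 18 h. Its 18 h arrays lay close together and far above both mock arrays, a change of 3.85 ± 0.19 (adjusted p = 0.000162). Cish, which blocks STAT5-activating receptors, stood at -2.32 and -2.64 in mock and 3.22 and 2.50 at 18 h (5.34 ± 0.84, adjusted p = 0.0114), and Socs2 rose by 2.87 ± 0.34 (adjusted p = 0.00374). Socs3, the inhibitor of gp130 receptors, changed by -0.49 ± 0.55 and was not called. Cish lost its call when each of the 4 arrays in turn was left out (highest adjusted p 0.0961). Cish and Socs2 lost their calls under normexp (changes of 0.39 to 3.86, adjusted p 0.0799 to 0.665).

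Transcription factors known from IL-4-primed macrophages rose in part. Of 22 such genes, 6 rose (27.3%) and 2 fell (9.09%), with a median of 0.48. Egr2, a zinc finger factor, stood at 1.64 and 2.22 in mock and 5.68 and 5.89 at 18 h (3.85 ± 0.48, adjusted p = 0.0042). Irf4, the interferon regulatory factor of alternative activation, stood at -3.23 and -2.94 in mock and 0.40 and 0.71 at 18 h (3.64 ± 0.55, adjusted p = 0.00954). In both genes the 18 h arrays lay above the mock arrays with no overlap. Batf3 rose by 3.57 ± 0.45, Bhlhe40 by 3.58 ± 0.52, Klf4 by 2.00 ± 0.32 and Ppargc1b, a coactivator of oxidative metabolism, by 1.59 ± 0.28. Pparg, the lipid-sensing nuclear receptor, changed by 0.84 ± 0.27 without a call. Maf (-1.34 ± 0.24) and the repressor gene Bcl6 (-0.99 ± 0.22) fell. Irf4, Klf4, Maf and Bcl6 lost their calls when each of the 4 arrays in turn was left out (highest adjusted p per gene 0.0815 to 0.239). Bhlhe40 and Ppargc1b lost their calls without 18 h replicate 1, 18 h replicate 2 or mock replicate 1 (highest adjusted p per gene 0.0719 to 0.13). Irf4, Klf4, Ppargc1b, Maf and Bcl6 lost their calls under normexp (changes of 1.28 to 2.32 for the rises and -0.90 to -0.55 for the falls, adjusted p 0.0851 to 0.296).

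The secreted products of alternative activation included the largest rises of the comparison. Where a gene was not well above background on either array of 1 group, its change is given as a bound, measured from the dimmest level still flagged as above background on those arrays, or from the gene's own level if higher. Each bound on a rise given below was lower without mock replicate 2, and that value is given where it differed by over 1.5 times. Retnla, a secreted cysteine-rich protein also called FIZZ1, stood at -7.50 and -7.62 in mock and 7.39 and 7.12 at 18 h, at least 12026-fold higher (7683-fold without mock replicate 2; adjusted p = 0.000891). Arg1, which cleaves arginine to ornithine and urea, stood at -7.51 and -8.01 in mock and 4.51 and 3.82 at 18 h, at least 1408-fold higher (899.7-fold without mock replicate 2; adjusted p = 7.1e-05). Both went from the floor of the arrays to among the brighter probes. Slc7a2, the transporter that brings arginine into the cell, stood at -7.74 and -7.11 in mock and -0.80 and -0.48 at 18 h, at least 50.4-fold higher (32.2-fold without mock replicate 2; adjusted p = 0.000162). Odc1, which turns ornithine into polyamines, changed by -0.44 ± 0.61 and was not called, and Smox, which oxidises spermine, fell (-0.79 ± 0.16). Of 18 arginine and polyamine genes tested, Arg1 and Slc7a2 passed the background filter only at 18 h and so could only rise, and of the other 16 none rose and 1 fell; the median over all 18 was -0.03. Smox lost its call when each of the 4 arrays in turn was left out (highest adjusted p 0.205). Slc7a2 and Smox lost their calls under normexp (changes of 1.22 for the rises and -0.38 for the falls, adjusted p 0.256 to 0.272).

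Both chitinase-like genes measured rose. Chil3, the lectin Ym1, stood at 1.67 and 0.97 in mock and 5.71 and 4.79 at 18 h (3.93 ± 0.59, adjusted p = 0.00924), and Chil4, its near-identical neighbour Ym2, at -2.06 and -3.31 in mock and 2.49 and 1.26 at 18 h (4.56 ± 0.65, adjusted p = 0.00759). The values of these copies are uncertain, since a probe of one may bind RNA of the other. Il4i1, a secreted amino acid oxidase, stood at -1.94 and -2.02 in mock and 2.81 and 3.20 at 18 h, with both 18 h arrays above both mock arrays (4.98 ± 0.53, adjusted p = 0.00247). Chit1, the true chitinase, changed by -1.21 ± 0.33 without a call. Chil3 and Chil4 lost their calls when 18 h replicate 1 or mock replicate 2 was left out (highest adjusted p per gene 0.0671 to 0.0824). Chil3 and Chil4 lost their calls under normexp (changes of 2.90 to 4.11, adjusted p 0.0751 to 0.19).

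Rises in the ribonuclease A family lay in its eosinophil-associated branch. These genes encode small secreted ribonucleases with antiviral and chemotactic activity, and their copies are so alike that 1 RNA may be read by several probes. Rnase2a stood at -3.69 and -3.73 in mock and 4.99 and 4.04 at 18 h, a 299-fold rise (8.22 ± 0.42, adjusted p = 0.000162). Ear1, well above background on 1 of the 2 mock arrays, rose by 5.63 ± 0.55 (adjusted p = 0.0018). Ear10 was at least 49.2-fold and Ear6 at least 42.9-fold higher (adjusted p = 0.00071 and 0.000286). Rnase2b was at least 2.02-fold higher (1.29-fold without mock replicate 2; adjusted p = 0.0282), but its direction turned under normexp background correction (-2.21). Of 9 members tested, Ear10, Ear6 and Rnase2b passed the background filter only at 18 h and so could only rise. Of the other 6, Rnase2a and Ear1 rose and none fell, while Rnase4 (1.27), Ang (0.67) and Rnase6 (0.09) were not called. Rnase2b lost its call when 18 h replicate 1, 18 h replicate 2 or mock replicate 2 was left out (highest adjusted p 0.196). Ear1, Ear10 and Ear6 lost their calls under normexp (changes of 1.01 to 1.51, adjusted p 0.276 to 0.474). The eosinophil marker sum, over 6 other genes, was 0.671 and 0.490 in mock and 0.459 and 0.396 at 18 h.

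**Figure D2:**
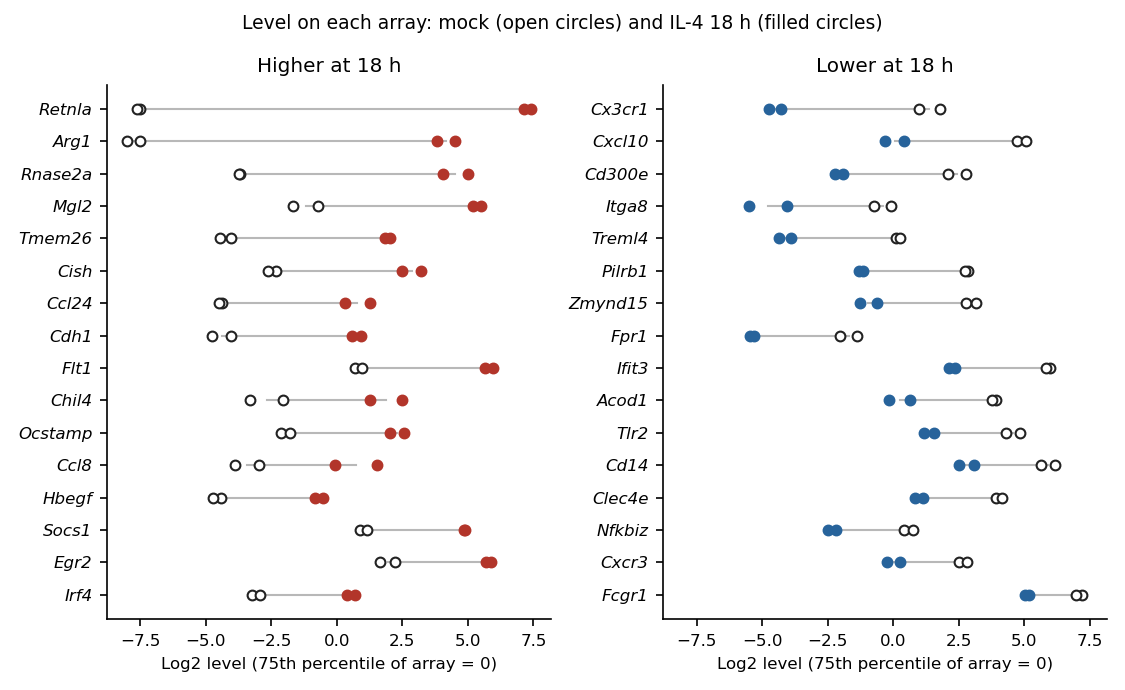
Log2 level (horizontal axis, relative to the 75th percentile of each array) of 32 named genes on each mock array (open circles) and each 18 h array (filled circles); grey lines join the group means. All 32 genes were called, and in every called gene both 18 h arrays lie on the same side of both mock arrays. This holds in 52.4% of all genes tested. The gap is widest in Retnla and Arg1.

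Promoters of genes on both sides of the response were searched for STAT-type and interferon-type blocks. The window ran from 250 bases before to 50 after each annotated start (RefSeq, GRCm38.p6), both strands were read, and 11453 of the 17928 genes had a promoter in the table. The IL-4 type block TTCNNNNGAA occurred in 6.77% of genes with a promoter, in 21 of 233 rising genes (9.01%) and in 32 of 377 falling genes (8.49%). The shorter block TTCNNNGAA occurred in 8.38% of genes with a promoter, in 8.58% of rising and in 9.02% of falling genes. The shares of rising and falling genes thus lay close to each other and to the share of all genes. The promoters of Retnla (chr16:48842359-48842658, plus strand), Pdcd1lg2 (chr19:29410669-29410968, plus strand) and Cish (chr9:107296409-107296708, plus strand) are shown because these strongly raised genes held such a block; they were chosen after their values were seen, and capitals mark TTCNNNNGAA in the promoters of Retnla and Pdcd1lg2 and TTCNNNGAA in that of Cish.
Retnla: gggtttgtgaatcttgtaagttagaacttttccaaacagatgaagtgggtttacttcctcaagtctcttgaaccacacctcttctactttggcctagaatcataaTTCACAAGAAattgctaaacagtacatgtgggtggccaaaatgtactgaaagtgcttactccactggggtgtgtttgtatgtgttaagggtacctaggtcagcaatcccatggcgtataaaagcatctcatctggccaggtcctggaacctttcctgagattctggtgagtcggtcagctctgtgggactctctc
Pdcd1lg2: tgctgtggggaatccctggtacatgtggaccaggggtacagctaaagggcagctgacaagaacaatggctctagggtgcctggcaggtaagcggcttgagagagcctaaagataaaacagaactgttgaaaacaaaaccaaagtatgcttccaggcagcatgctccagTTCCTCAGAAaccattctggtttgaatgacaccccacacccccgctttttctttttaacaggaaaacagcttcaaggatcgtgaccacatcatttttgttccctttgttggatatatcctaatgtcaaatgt
Cish: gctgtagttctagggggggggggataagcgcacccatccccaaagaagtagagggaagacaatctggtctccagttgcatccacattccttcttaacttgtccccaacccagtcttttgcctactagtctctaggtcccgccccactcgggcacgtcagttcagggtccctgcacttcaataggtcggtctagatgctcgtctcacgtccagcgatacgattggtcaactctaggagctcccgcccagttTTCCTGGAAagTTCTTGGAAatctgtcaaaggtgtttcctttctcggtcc
The block began 145 bases before the start in Retnla and 82 bases before it in Pdcd1lg2, and Cish held 2 blocks at and just after its start. A match describes the letters only, and no binding was measured here.

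Chemokines fell in both families, and rises were called only among CC chemokines. The families were not compared by a test. Of 14 CC chemokines 2 rose (14.3%) and 3 fell (21.4%), with a median of 0.20. Of 11 CXC and CX3C chemokines none rose and 7 fell (63.6%), with a median of -2.66. Cxcl11 and Cxcl1 passed the background filter only in mock, and 6 of the other 9 fell. Ccl24, which attracts eosinophils, stood at -4.37 and -4.50 in mock and 1.25 and 0.30 at 18 h (5.21 ± 1.01, adjusted p = 0.0263). Ccl8 stood at -2.97 and -3.89 in mock and 1.52 and -0.08 at 18 h (4.15 ± 0.49, adjusted p = 0.00357). Both lay above mock on both arrays. The inflammatory chemokines Ccl3 (-2.40 ± 0.41), Ccl4 (-2.27 ± 0.42) and Ccl5 (-1.85 ± 0.36) fell. Ccl24, Ccl4 and Ccl5 lost their calls when each of the 4 arrays in turn was left out (highest adjusted p per gene 0.15 to 0.173). Ccl3 lost its call without 18 h replicate 1, mock replicate 1 or mock replicate 2 (highest adjusted p 0.111). Ccl24, Ccl8, Ccl3, Ccl4 and Ccl5 lost their calls under normexp (changes of 2.02 to 2.47 for the rises and -1.93 to -1.51 for the falls, adjusted p 0.075 to 0.19).

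Cxcl10, the interferon-induced ligand of Cxcr3, stood at 4.74 and 5.05 in mock and -0.31 and 0.41 at 18 h, with the 18 h arrays far below mock (-4.85 ± 0.58, adjusted p = 0.00369). Cxcl11, a second ligand of that receptor, was at least 7.84-fold lower and near background at 18 h (adjusted p = 0.000736), and Cxcl9, the remaining one, well above background on 1 of the 2 18 h arrays, fell (-2.82 ± 0.44, adjusted p = 0.0113). All 3 ligands were lower on both 18 h arrays than on either mock array. The receptor gene itself fell as well: Cxcr3 stood at 2.52 and 2.82 in mock and 0.26 and -0.23 at 18 h (-2.65 ± 0.23, adjusted p = 0.00112). Cx3cl1 fell (-2.66 ± 0.29) and Cxcl16 (-2.32 ± 0.46). The platelet chemokines Ppbp (-1.64 ± 0.36) and Pf4 (-1.07 ± 0.24) fell too. Both are among the 6 megakaryocyte markers, so their own falls are part of that lower sum. The part of such cells was not tested. The neutrophil attractants Cxcl2 (-3.44 ± 1.69) and Cxcl1, which was near background at 18 h, were not called. Cxcl16, Ppbp and Pf4 lost their calls when each of the 4 arrays in turn was left out (highest adjusted p per gene 0.194 to 0.278). Cxcl9 lost its call without 18 h replicate 1 or 18 h replicate 2 (highest adjusted p 0.0959). Cxcl11, Cxcl9, Cxcl16, Ppbp and Pf4 lost their calls under normexp (changes of -2.98 to -0.61, adjusted p 0.124 to 0.267).

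Lectins moved both ways. Mgl2, a galactose-type lectin, stood at -0.71 and -1.69 in mock and 5.49 and 5.18 at 18 h, a 92.7-fold rise (6.53 ± 0.87, adjusted p = 0.00575). Clec10a, its close relative, rose by 2.01 ± 0.26 and Mrc1, the mannose receptor, by 1.59 ± 0.19. Clec4e, the receptor Mincle for mycobacterial glycolipids, stood at 3.93 and 4.17 in mock and 0.83 and 1.14 at 18 h and fell with no overlap (-3.07 ± 0.35, adjusted p = 0.00328). Clec12a (-2.26 ± 0.29), Clec1b (-2.52 ± 0.31), Cd69 (-2.70 ± 0.60) and Klra2 (-3.74 ± 0.60) fell as well. Of 20 C-type lectins 3 rose (15%) and 5 fell (25%), with a median of -0.65. Cd69 lost its call when each of the 4 arrays in turn was left out (highest adjusted p 0.219). Klra2 lost its call without 18 h replicate 1, mock replicate 1 or mock replicate 2 (highest adjusted p 0.0884). Mgl2 lost its call without 18 h replicate 1 or mock replicate 2 (highest adjusted p 0.0547). Clec10a lost its call without 18 h replicate 1 (highest adjusted p 0.0546). Mrc1, Clec4e, Clec12a and Clec1b lost their calls under normexp (changes of 1.95 for the rises and -2.59 to -2.17 for the falls, adjusted p 0.0587 to 0.0792).

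IL-4 is known to make macrophages fuse into giant cells, and several fusion genes rose. Ocstamp, a membrane protein needed for fusion, stood at -2.14 and -1.80 in mock and 2.04 and 2.58 at 18 h (4.28 ± 0.33, adjusted p = 0.000775), and its relative Dcstamp rose by 1.92 ± 0.37. Cdh1, E-cadherin, stood at -4.76 and -4.03 in mock and 0.58 and 0.92 at 18 h, a 35.3-fold rise (5.14 ± 0.55, adjusted p = 0.00247). For each of Ocstamp and Cdh1 the 18 h arrays lay above the mock arrays. Atp6v0d2, a proton pump subunit, rose by 3.28 ± 0.74, and Itgb3, the beta 3 integrin, by 3.07 ± 0.17 (adjusted p = 0.000191). Of 17 fusion genes 5 rose (29.4%) and none fell, with a median of 0.23, while Trem2 (-0.17) and Tyrobp (-0.09) were not called. Dcstamp and Atp6v0d2 lost their calls when each of the 4 arrays in turn was left out (highest adjusted p per gene 0.179 to 0.222). Ocstamp, Dcstamp, Cdh1 and Atp6v0d2 lost their calls under normexp (changes of 1.99 to 4.59, adjusted p 0.0564 to 0.19).

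Junction proteins and integrins were mixed. Cldn11, a claudin of tight junctions, stood at -6.96 and -5.76 in mock and 0.10 and -0.87 at 18 h (5.98 ± 0.45, adjusted p = 0.000747) and was well above background on 1 of the 2 mock arrays. F11r, the junctional adhesion molecule A, fell (-2.87 ± 0.37, adjusted p = 0.00504). The cadherin partners Ctnnb1 (0.17) and Ctnna1 (-0.06) were not called. Of 20 integrins 3 rose (15%, against 1.78% of all genes tested) and 3 fell (15%, against 2.95%), with a median of -0.18. Itgax, which encodes CD11c, rose by 3.03 ± 0.39 (adjusted p = 0.00501) and Itgb8 by 3.13 ± 0.34, whose direction turned under normexp. Itga8 stood at -0.72 and -0.07 in mock and -5.49 and -4.06 at 18 h and fell (-4.38 ± 0.69, adjusted p = 0.0114), and Itga6 (-1.91 ± 0.21) and Itga9 (-1.13 ± 0.20) fell. Itgax also marks dendritic cells; of 10 dendritic cell markers Zbtb46, Xcr1, Ccr7, Bst2, Itgax and Dpp4 were above background on all 4 arrays and Clec9a and Siglech on none, and the part of such cells was not tested. Itga9 lost its call when 18 h replicate 1, 18 h replicate 2 or mock replicate 2 was left out (highest adjusted p 0.141). Itga8 lost its call without 18 h replicate 1, mock replicate 1 or mock replicate 2 (highest adjusted p 0.0911). Cldn11, Itga6 and Itga9 lost their calls under normexp (changes of 1.46 for the rises and -1.54 to -1.01 for the falls, adjusted p 0.0725 to 0.207).

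Growth factors and their receptors included strong rises. Flt1, a receptor of vascular endothelial growth factor, stood at 0.67 and 0.97 in mock and 5.67 and 5.95 at 18 h, a 31.7-fold rise (4.99 ± 0.26, adjusted p = 0.000162). Hbegf, a ligand of the EGF receptor, stood at -4.41 and -4.74 in mock and -0.53 and -0.83 at 18 h (3.90 ± 0.37, adjusted p = 0.00172). Edn1, the vasoconstrictor endothelin 1, was at least 60.9-fold higher (adjusted p = 0.00332). None of the 3 overlapped between groups. Tgfa, above background on 1 of the 2 mock arrays, rose by 1.50 ± 0.24, with the opposite sign under normexp (-1.81), and Tgfb3 fell (-2.18 ± 0.42). Igf1 changed by 1.33 ± 0.47 and was not called. Edn1 passed the background filter only at 18 h; of the other 27 members 3 rose and 1 fell, and the median over all 28 was 0.01. Tgfb3 lost its call when each of the 4 arrays in turn was left out (highest adjusted p 0.152). Tgfa lost its call without 18 h replicate 1, 18 h replicate 2 or mock replicate 2 (highest adjusted p 0.103). Hbegf and Edn1 lost their calls under normexp (changes of 0.86 to 1.24, adjusted p 0.314 to 0.335).

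Most matrix genes had no call. Fn1, fibronectin, stood at -5.12 and -6.28 in mock and -0.30 and -0.48 at 18 h (5.31 ± 0.39, adjusted p = 0.000736) and was well above background on 1 of the 2 mock arrays. Timp1, an inhibitor of matrix proteases, rose by 1.23 ± 0.19 and Plaur, the urokinase receptor, rose too (adjusted p = 0.0275), while Spp1, osteopontin, fell (-1.06 ± 0.21). Of 31 members 3 rose (9.68%, against 1.78% of all genes tested) and 1 fell (3.23%, against 2.95%), with a median of -0.05. The stromal marker Col1a2 changed by -0.42 ± 0.14 without a call, and stromal sums (9 markers) were 40.3 and 35.7 in mock and 41.2 and 37.2 at 18 h. Plaur and Spp1 lost their calls when each of the 4 arrays in turn was left out (highest adjusted p per gene 0.169 to 0.188). Timp1 lost its call without 18 h replicate 1, 18 h replicate 2 or mock replicate 2 (highest adjusted p 0.0913). Fn1, Timp1, Plaur and Spp1 lost their calls under normexp (changes of 0.88 to 1.45 for the rises and -0.67 for the falls, adjusted p 0.106 to 0.296).

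Several strong rises lay outside these groups. Aqp3, a water and glycerol channel, stood at -5.15 and -4.64 in mock and 2.23 and 3.48 at 18 h, a 215-fold rise (7.75 ± 0.67, adjusted p = 0.00112), or 139-fold without 18 h replicate 2 and 331-fold without 18 h replicate 1. Tmem26, a membrane protein, stood at -4.48 and -4.03 in mock and 2.04 and 1.82 at 18 h (6.18 ± 0.28, adjusted p = 0.000162). Pdcd1lg2, the coinhibitory ligand PD-L2, stood at -6.97 and -6.23 in mock and -0.08 and -0.75 at 18 h (6.18 ± 0.99, adjusted p = 0.0121). In each of these genes both 18 h arrays lay above both mock arrays, and Aqp3 and Pdcd1lg2 were well above background on 1 of the 2 mock arrays. Mcf2l rose by 5.27 ± 0.50, Hebp2, a heme-binding protein, by 4.84 ± 0.28, Pdlim1 by 4.24 ± 0.36 and Tarm1, an activating myeloid receptor, by 4.04 ± 0.35. Msx3, a homeobox gene, was at least 118-fold higher (70.0-fold without mock replicate 2; adjusted p = 0.000837) and Pecam1 at least 12.3-fold higher (7.86-fold without mock replicate 2; adjusted p = 0.0019), the latter with the opposite sign under normexp (-0.67). Probes of the sodium channel genes Scn1a and Scn3a were at least 17.7-fold and 21.5-fold higher (11.3-fold and 13.7-fold without mock replicate 2; adjusted p = 0.00112 and 0.00411); these genes are alike in sequence, and both changed sign under normexp (-0.028 and -0.19). Tfrc, the transferrin receptor, rose by 2.28 ± 0.23 and Fcgr2b, the inhibitory IgG receptor, by 1.78 ± 0.30. Pdcd1lg2 and Fcgr2b lost their calls when each of the 4 arrays in turn was left out (highest adjusted p per gene 0.097 to 0.111). Aqp3, Pdcd1lg2, Mcf2l, Tarm1 and Msx3 lost their calls under normexp (changes of 0.76 to 4.25, adjusted p 0.0972 to 0.553).

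**Figure D3:**
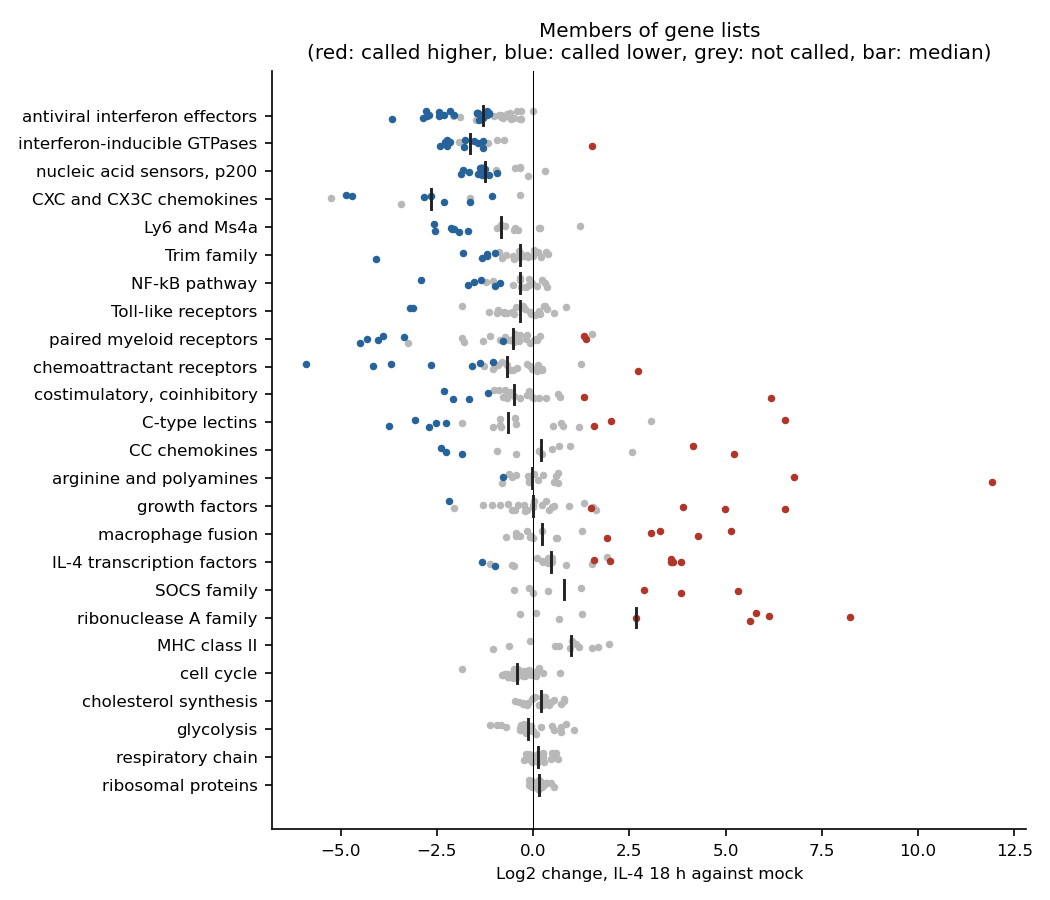
Log2 change after 18 h of IL-4 (horizontal axis) of each tested member of 25 gene lists (rows); red points were called higher, blue points called lower, grey points not called, and black bars are list medians. The antiviral, GTPase, nucleic acid sensor and CXC chemokine lists have the lowest medians shown, and no member of the MHC class II, cell cycle, cholesterol synthesis, glycolysis, respiratory chain or ribosomal protein lists was called.

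Interferon-inducible genes of several kinds fell. The list called nucleic acid sensors here also holds p200 genes and Nod1, Nod2, Nlrp3, Casp1, Casp4 and Pycard, and its falls include Nod2 and Casp4. Of 39 antiviral effectors 19 fell (48.7%) and none rose (median -1.29). Of the 16 members of the interferon-inducible GTPase list 11 fell (68.8%) and 1 rose (median -1.65). Of the 19 members of the nucleic acid sensor list 11 fell (57.9%) and none rose (median -1.24). Within the slide that held both 18 h arrays and mock replicate 2, these medians were -1.24, -1.65 and -1.28, with 9, 6 and 7 members called lower (the lone mock array was assumed to vary like the other groups); with the slide as a block 22, 11 and 12 were called lower. Ifit3, which binds viral RNA complexes, stood at 5.97 and 5.82 in mock and 2.12 and 2.35 at 18 h (-3.66 ± 0.29, adjusted p = 0.000837). Ifit2 stood at 3.80 and 3.50 in mock and 0.95 and 0.76 at 18 h (-2.79 ± 0.22, adjusted p = 0.000837). The 18 h arrays lay below the mock arrays by more than 2 log2 units in both genes. Ifi44 fell (-2.76 ± 0.27), Ifit1 (-2.71 ± 0.31), Isg20, an exonuclease of viral RNA, (-2.86 ± 0.46), and Rsad2, viperin, (-2.46 ± 0.50). Bst2, tetherin, changed by -0.50 ± 0.25 and Ifitm3 by -0.59 ± 0.25, and neither was called. Isg20 and Rsad2 lost their calls when each of the 4 arrays in turn was left out (highest adjusted p per gene 0.0963 to 0.167). Ifit1, Isg20 and Rsad2 lost their calls under normexp (changes of -2.49 to -2.05, adjusted p 0.0557 to 0.19).

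The GTPases act on vacuoles that hold intracellular microbes. Gbp6 stood at -0.04 and -0.33 in mock and -2.27 and -2.94 at 18 h (-2.42 ± 0.26, adjusted p = 0.00252) and Iigp1 at 2.90 and 2.61 in mock and 0.83 and 0.34 at 18 h (-2.17 ± 0.25, adjusted p = 0.00354), with no overlap in either. Tgtp1 fell (-2.24 ± 0.19), Igtp (-1.76 ± 0.14) and Irgm2 (-1.80 ± 0.17). Guanylate-binding protein genes are alike in sequence, so the share of each is uncertain. The 1 list member that rose was Irgc1, named after its value was seen, which passed the background filter only at 18 h (adjusted p = 0.0188). Whether interferon induces Irgc1 was not tested. Among the sensors, Zbp1, which binds Z-form nucleic acids, stood at 5.37 and 5.21 in mock and 3.41 and 3.41 at 18 h (-1.88 ± 0.19, adjusted p = 0.0019). Ifih1, the double-stranded RNA sensor MDA5, fell (-1.35 ± 0.20), Trex1, a DNA exonuclease, (-1.43 ± 0.13), Nod2, a sensor of bacterial cell walls, (-1.66 ± 0.18) and Ifi203 of the p200 family (-1.81 ± 0.22). Sting1, the DNA-sensing adaptor, changed by -0.33 ± 0.17 without a call. Ifih1 lost its call when 18 h replicate 1 or mock replicate 2 was left out (highest adjusted p 0.0866). Iigp1, Tgtp1, Igtp, Irgm2, Zbp1, Ifih1, Trex1 and Ifi203 lost their calls under normexp (changes of -1.82 to -0.95, adjusted p 0.0587 to 0.19).

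Some factors that carry interferon signals fell as well. Stat2 (-1.19 ± 0.19), Irf9 (-0.59 ± 0.13) and Irf7 (-1.28 ± 0.23) were lower at 18 h. The receptor genes Ifngr1 (-0.54) and Ifngr2 (0.13) were not called. Of 24 Trim genes, many of which restrict viruses, 6 fell (25%) and none rose (median -0.35). Trim30a fell (-1.82 ± 0.16, adjusted p = 0.00112) and Trim21, an intracellular antibody receptor, (-1.33 ± 0.13, adjusted p = 0.00191). Trim30b stood at -0.30 and 0.13 in mock and -4.42 and -3.88 at 18 h (-4.07 ± 0.52, adjusted p = 0.00479), and probes of the Trim30 copies may share RNA. Of 17 Ly6 and Ms4a genes 7 fell (41.2%) and none rose (median -0.84). Among those that fell were Ly6a, the antigen Sca-1 (-2.55 ± 0.36), Ly6c1 (-2.57 ± 0.32), Ly6i (-2.11 ± 0.19) and Ms4a4c (-2.05 ± 0.24). Irf9 and Irf7 lost their calls when each of the 4 arrays in turn was left out (highest adjusted p per gene 0.145 to 0.269). Stat2 lost its call without 18 h replicate 1, 18 h replicate 2 or mock replicate 2 (highest adjusted p 0.113). Ly6a lost its call without 18 h replicate 1 or mock replicate 1 (highest adjusted p 0.0723). Stat2, Irf9, Irf7, Trim30a, Trim21, Trim30b and Ms4a4c lost their calls under normexp (changes of -3.25 to -0.20, adjusted p 0.0936 to 0.599).

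**Figure D4:**
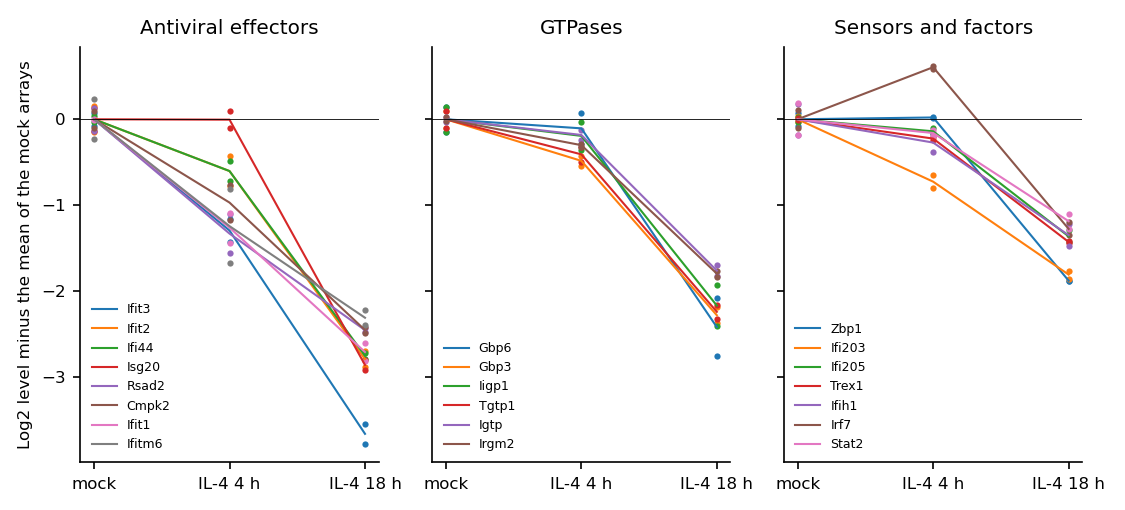
Log2 level on each C57BL6 array minus the mean of the mock arrays (vertical axis) in mock, after 4 h and after 18 h of IL-4 for 21 named interferon-related genes in 3 panels; points are arrays and lines join group means. All 21 genes are lower at 18 h than in mock. At 4 h Irf7 is higher, Isg20 lies on both sides of 0, and the mean of Zbp1 is slightly above 0 (0.02).

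The interferon-type block GAAANNGAAA, read as TTTCNNTTTC on the other strand, occurred in 437 of the 11453 genes with a promoter (3.82%). It occurred in 46 of 377 falling genes (12.2%), in 6 of 233 rising genes (2.58%) and in 3.55% of genes without a call. By list, 8 of 9 GTPases, 11 of 29 antiviral effectors, 5 of 15 nucleic acid sensors, 7 of 20 Trim genes, 2 of 9 CXC and CX3C chemokines and none of 16 NF-kB pathway genes with a promoter held it. Among the members that fell, it was held by 6 of 7 GTPases, 4 of 16 antiviral effectors, 5 of 8 nucleic acid sensors, 5 of 6 Trim genes and 1 of 5 chemokines. The share among falling antiviral effectors (25.0%) was thus below that of their whole list (37.9%). The promoters of Cxcl10 (chr5:92348840-92349139, minus strand), Ifit3 (chr19:34583279-34583578, plus strand), Igtp (chr11:58199306-58199605, plus strand) and Trim30a (chr7:104446076-104446375, minus strand) are printed as 1 falling gene each of the chemokines, antiviral effectors, GTPases and Trim genes. They were chosen after their values were seen and because they held the block, which no other falling CXC or CX3C chemokine with a promoter did; capitals mark it.
Cxcl10: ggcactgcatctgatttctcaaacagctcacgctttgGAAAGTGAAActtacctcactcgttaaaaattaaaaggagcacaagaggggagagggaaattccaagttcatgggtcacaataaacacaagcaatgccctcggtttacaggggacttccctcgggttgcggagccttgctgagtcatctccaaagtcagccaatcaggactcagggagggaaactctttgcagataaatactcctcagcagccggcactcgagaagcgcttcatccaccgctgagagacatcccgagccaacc
Ifit3: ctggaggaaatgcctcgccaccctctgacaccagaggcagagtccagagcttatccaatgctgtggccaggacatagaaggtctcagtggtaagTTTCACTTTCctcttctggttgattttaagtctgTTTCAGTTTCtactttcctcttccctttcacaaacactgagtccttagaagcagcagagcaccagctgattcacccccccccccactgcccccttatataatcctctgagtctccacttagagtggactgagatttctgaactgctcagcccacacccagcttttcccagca
Igtp: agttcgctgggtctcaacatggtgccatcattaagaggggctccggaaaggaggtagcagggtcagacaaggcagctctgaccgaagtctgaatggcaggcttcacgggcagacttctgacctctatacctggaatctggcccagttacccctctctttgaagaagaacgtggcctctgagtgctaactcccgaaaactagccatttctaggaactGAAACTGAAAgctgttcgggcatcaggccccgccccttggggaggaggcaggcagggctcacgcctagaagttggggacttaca
Trim30a: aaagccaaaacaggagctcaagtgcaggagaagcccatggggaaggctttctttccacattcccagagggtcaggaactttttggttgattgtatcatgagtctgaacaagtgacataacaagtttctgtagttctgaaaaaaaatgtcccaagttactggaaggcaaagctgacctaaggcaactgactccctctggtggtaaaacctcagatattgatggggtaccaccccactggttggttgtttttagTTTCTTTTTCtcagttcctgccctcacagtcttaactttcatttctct
Ifit3 held 2 blocks, which began 156 and 122 bases before its start. The block began 213 bases before the start in Cxcl10, 34 bases before it in Igtp and 2 bases after it in Trim30a. The block is described here by its letters, and no factor's binding was measured.

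Sensors of bacteria and their signalling fell in part. Tlr2, the receptor of bacterial lipoproteins, stood at 4.30 and 4.84 in mock and 1.16 and 1.56 at 18 h (-3.21 ± 0.29, adjusted p = 0.00117). Cd14, the co-receptor of lipopolysaccharide, stood at 6.18 and 5.64 in mock and 3.08 and 2.51 at 18 h (-3.12 ± 0.50, adjusted p = 0.0125). Both were lower on each 18 h array than on each mock array, while Tlr4 (-0.49 ± 0.19) and Myd88 (-0.56 ± 0.14) were not called. Of 24 genes of Toll-like receptors, their co-receptors and their signalling, 2 fell (8.33%), Tlr2 and Cd14, and none rose (median -0.35). Of 20 NF-kB pathway genes 6 fell (30%) and none rose (median -0.33). The falls lay in the inhibitors Nfkbia (-1.52 ± 0.20) and Nfkbie (-1.36 ± 0.16), and in Nfkbiz (-2.92 ± 0.39), Relb (-1.68 ± 0.38), Nfkb2 (-1.001 ± 0.21) and the kinase gene Ikbke (-0.86 ± 0.18). Rela changed by -0.52 ± 0.17 and Nfkb1 by -0.32 ± 0.14, without a call. Cd14, Relb, Nfkb2 and Ikbke lost their calls when each of the 4 arrays in turn was left out (highest adjusted p per gene 0.105 to 0.261). Nfkbiz lost its call without 18 h replicate 1 or mock replicate 2 (highest adjusted p 0.0599). Nfkbia lost its call without 18 h replicate 2 (highest adjusted p 0.0575). Cd14, Nfkbia, Nfkbie, Relb, Nfkb2 and Ikbke lost their calls under normexp (changes of -2.62 to -0.56, adjusted p 0.154 to 0.19).

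Cytokine genes of the interleukin-1 system moved both ways. Il1b was at least 4.3-fold lower and near background at 18 h (adjusted p = 0.026), Il18 fell (-1.35 ± 0.16) and the antagonist gene Il1rn (-1.56 ± 0.20). The receptor genes Il1r1 (3.14 ± 0.52) and Il1rl2 (3.59 ± 0.75) rose, as did Il6st, which encodes gp130 (1.44 ± 0.17). Il1b passed the background filter only in mock; of the other 22 inflammatory cytokine and receptor genes 3 rose and 2 fell, and the median over all 23 was -0.05. Acod1, which makes itaconate in inflammatory macrophages, stood at 3.92 and 3.76 in mock and 0.65 and -0.16 at 18 h, with the 18 h arrays below (-3.59 ± 0.64, adjusted p = 0.0187). Nox1, an oxidase subunit, was at least 9.76-fold lower (adjusted p = 0.0307) and Cybb, the phagocyte oxidase subunit, fell (-1.41 ± 0.20). Il1b, Il1rl2, Acod1 and Nox1 lost their calls when each of the 4 arrays in turn was left out (highest adjusted p per gene 0.141 to 0.193). Il1r1 lost its call without 18 h replicate 1, 18 h replicate 2 or mock replicate 2 (highest adjusted p 0.104). Cybb lost its call without 18 h replicate 1 or mock replicate 2 (highest adjusted p 0.0775). Il1rn lost its call without 18 h replicate 2 (highest adjusted p 0.0552). Il1b, Il18, Il1rn, Il1r1, Il1rl2, Acod1, Nox1 and Cybb lost their calls under normexp (changes of 1.01 to 1.70 for the rises and -3.16 to -0.99 for the falls, adjusted p 0.0587 to 0.369).

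Of 25 receptors for chemoattractants 1 rose (4%) and 7 fell (28%), with a median of -0.67. Cx3cr1, the fractalkine receptor, stood at 0.97 and 1.79 in mock and -4.74 and -4.27 at 18 h, the largest called fall among genes well above background on all 4 arrays (-5.89 ± 0.86, adjusted p = 0.00844). The formyl peptide receptors Fpr1 (-3.70 ± 0.55) and Fpr2 (-4.15 ± 0.45), which are alike in sequence, fell. Ltb4r1, the leukotriene B4 receptor, rose by 2.72 ± 0.29 (adjusted p = 0.00261). Ccr2 changed by -0.99 ± 0.38 without a call. Cx3cr1 and Treml4 also mark monocyte subsets, of which these and Spn (-2.04 ± 0.35), 3 of 8 tested genes (37.5%), fell and none rose (median -1.51). Both are also among the 6 monocyte markers, so the falls of Cx3cr1 and Treml4 are part of the lower monocyte sum given above. The part of such cells was not tested. Spn lost its call when each of the 4 arrays in turn was left out (highest adjusted p 0.124). Cx3cr1 lost its call without 18 h replicate 1, 18 h replicate 2 or mock replicate 2 (highest adjusted p 0.076). Fpr1 lost its call without 18 h replicate 1, 18 h replicate 2 or mock replicate 1 (highest adjusted p 0.076). Fpr1 and Spn lost their calls under normexp (changes of -2.92 to -1.59, adjusted p 0.111 to 0.19).

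Paired myeloid receptors, which set activating against inhibitory signals, fell in 6 of 29 members (20.7%) and rose in 2 (6.90%), with a median of -0.51. Treml4 stood at 0.10 and 0.25 in mock and -3.91 and -4.37 at 18 h (-4.32 ± 0.45, adjusted p = 0.00247) and Cd300e at 2.79 and 2.08 in mock and -1.91 and -2.22 at 18 h (-4.50 ± 0.99, adjusted p = 0.0431). Neither overlapped between groups. Pilra, the inhibitory partner, fell (-3.90 ± 0.58), as did the activating Pilrb1 (-4.03 ± 0.39) and Pilrb2 (-3.36 ± 0.42), near copies of each other. Cd200r1, the inhibitory CD200 receptor, rose by 1.33 ± 0.26 and Cd300lb by 1.37 ± 0.28. Fcgr1, the high-affinity IgG receptor, stood at 7.20 and 6.99 in mock and 5.05 and 5.19 at 18 h (-1.98 ± 0.25, adjusted p = 0.0042). Zmynd15, known as a repressor in the testis, stood at 2.78 and 3.15 in mock and -0.61 and -1.29 at 18 h (-3.92 ± 0.24, adjusted p = 0.000325). The B cell scaffold gene Bank1 fell (-3.33 ± 0.43) and Fcrl1, a receptor of B cells, (-2.83 ± 0.19), while the B cell marker sum was lower too; of the B cell markers themselves none was called, and the part of such cells was not tested. Cd300e, Pilra, Cd200r1 and Cd300lb lost their calls when each of the 4 arrays in turn was left out (highest adjusted p per gene 0.0784 to 0.224). Bank1 lost its call without 18 h replicate 1 (highest adjusted p 0.0514). Cd300e, Cd300lb, Fcgr1 and Fcrl1 lost their calls under normexp (changes of 0.22 for the rises and -3.91 to -1.48 for the falls, adjusted p 0.0675 to 0.723).

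Most lipid genes had no call. Abca1, the cholesterol exporter, fell (-1.83 ± 0.23, adjusted p = 0.00413) and Acsl1, which activates fatty acids, (-1.08 ± 0.21), while Plin2 (-0.10) and Lpl (0.04) were not called. Of 24 lipid handling genes 2 fell (8.33%, against 2.95% of all genes tested) and none rose. Of 22 fatty acid oxidation genes 2 rose (9.09%, against 1.78% of all genes tested). These were Ppargc1b, given above, and Etfa (0.66 ± 0.14), an electron carrier of beta-oxidation. Pla2g5, a secreted phospholipase, rose by 3.25 ± 0.50, and the prostaglandin synthases Ptges (-1.08 ± 0.21) and Hpgds (-0.84 ± 0.14) fell. Etfa, Ptges and Hpgds lost their calls when each of the 4 arrays in turn was left out (highest adjusted p per gene 0.119 to 0.232). Acsl1 and Pla2g5 lost their calls without 18 h replicate 1, 18 h replicate 2 or mock replicate 2 (highest adjusted p per gene 0.0907 to 0.181). Abca1, Acsl1, Etfa, Pla2g5, Ptges and Hpgds lost their calls under normexp (changes of 1.03 to 1.31 for the rises and -1.71 to -0.51 for the falls, adjusted p 0.0725 to 0.194).

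Other groups had no called member. All 12 MHC class II and antigen loading genes stayed without a call at a median of 0.99, with Cd74 at 5.40 and 5.66 in mock and 6.62 and 6.84 at 18 h and H2-Ab1 at 4.64 and 4.94 in mock and 5.50 and 6.03 at 18 h. None of 40 cell cycle genes was called (median -0.42), and Mki67 changed by -0.62 ± 0.28. None was called among 22 cholesterol synthesis genes (median 0.20), 25 glycolysis genes (median -0.14), 31 respiratory chain genes (median 0.12) or 24 ribosomal protein genes (median 0.15). The cholesterol median was negative with the slide as a block (-0.04). A missing call does not show that these genes stayed the same: the change of Cd74 was 1.20 ± 0.57 and that of Ldha, lactate dehydrogenase A, -0.34 ± 0.24.

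The 18 h levels were next set against those after 4 h of IL-4 in the same strain. This comparison called 168 genes, 0.937% of those tested: 60 were higher at 18 h (0.335%) and 108 lower (0.602%). These calls were fragile, since none remained without 18 h replicate 1 or 2 or 4 h replicate 1 or 2, under normexp (1055 genes at an unadjusted p below 0.05), or with these 4 arrays fitted alone (3150). Of the 320 genes raised at 18 h against mock, 36 were higher at 18 h than at 4 h and 4 were lower. Of the 528 lowered genes, 77 were lower at 18 h than at 4 h and 1 was higher. The 4 h and 18 h comparisons share the mock arrays, so their values stand side by side and no overlap is drawn. Both sets were chosen by their change at 18 h, which by itself favours larger changes at 18 h than at 4 h. That choice bears on the counts above and on the medians, so neither shows that the response grew with time. The raised genes had median changes of 1.26 at 4 h and 1.79 at 18 h, and the lowered genes -0.76 and -1.39.

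Among genes higher at 18 h than at 4 h was Rnase2a, at -0.09 and -0.93 after 4 h and 4.99 and 4.04 after 18 h (difference 5.02 ± 0.42, adjusted p = 0.00775). Fn1 stood at -3.81 and -4.40 after 4 h and -0.30 and -0.48 after 18 h (3.71 ± 0.39, adjusted p = 0.00775). Ocstamp stood at -1.66 and -1.31 after 4 h and 2.04 and 2.58 after 18 h (3.79 ± 0.33, adjusted p = 0.00775). In these genes both 4 h arrays lay between the mock and the 18 h arrays. Itgb3 differed by 1.31 ± 0.17 and Itgax by 2.33 ± 0.39. In contrast, Arg1 stood at 1.78 and 2.07 after 4 h and at 4.51 and 3.82 after 18 h (2.24 ± 0.45, adjusted p = 0.0773), and Edn1 at 0.56 and 0.19 and -0.37 and 0.00 (-0.56 ± 0.75, adjusted p = 0.895); neither difference was called.

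Some genes were high at 4 h and lower again at 18 h. Socs1 stood at 6.13 and 6.32 after 4 h and differed by -1.35 ± 0.19 at 18 h (adjusted p = 0.0239). Ffar2, a receptor of short-chain fatty acids, stood at -3.36 and -3.93 in mock, 0.61 and 0.53 after 4 h and -3.01 and -3.64 after 18 h (18 h against 4 h -3.90 ± 0.55, adjusted p = 0.0229). Its 18 h arrays lay in the range near mock, and the change against mock, 0.32 ± 0.55, was not called. Serpina3f, a protease inhibitor with near-identical neighbours, stood at -4.49 and -5.44 in mock, 0.05 and -0.13 after 4 h and -2.96 and -4.03 after 18 h (-3.45 ± 0.47, adjusted p = 0.0199).

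The interferon-inducible genes were lower at 18 h than at 4 h in many members. The difference was called lower in 10 of 39 antiviral effectors, 7 of 16 GTPases, 4 of 19 nucleic acid sensors, 3 of 24 Trim genes and 7 of 17 Ly6 and Ms4a genes, and higher in none of these lists. Over all genes tested it was called lower in 0.602%. The median changes of the first 3 lists against mock were -0.10, -0.11 and -0.23 at 4 h, beside -1.29, -1.65 and -1.24 at 18 h. Ifit3 stood at 4.73 and 4.47 after 4 h and 2.12 and 2.35 after 18 h (-2.37 ± 0.29, adjusted p = 0.0151). Irf7 stood at 4.03 and 3.82 in mock, 4.55 and 4.52 after 4 h and 2.72 and 2.57 after 18 h (18 h against 4 h -1.88 ± 0.23, adjusted p = 0.0151). Cells given IL-4 for 4 h had no mock of their own incubation time, so a difference between times and one between incubations cannot be told apart.

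Balb/c macrophages were treated in the same way and share no array with the C57BL6 comparison. Of the 320 genes raised in C57BL6, 308 (96.2%) had a positive change in Balb/c (median 1.36), and of the 528 lowered genes 503 (95.3%) had a negative one (median -1.16). The share of equal sign was not counted over all genes tested, so these shares have no background beside them. Across all 17928 genes, which are not independent replicates, the changes of the strains correlated at 0.629. Across the 848 called genes the correlation was 0.919, a value that choosing genes called in both directions in C57BL6 raises by itself. The antiviral, GTPase and nucleic acid sensor lists had medians of -1.60, -2.10 and -1.45 in Balb/c. Cell cycle genes had a median of 0.71 in Balb/c and -0.42 in C57BL6, and this difference was not tested as a list.

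**Figure D5:**
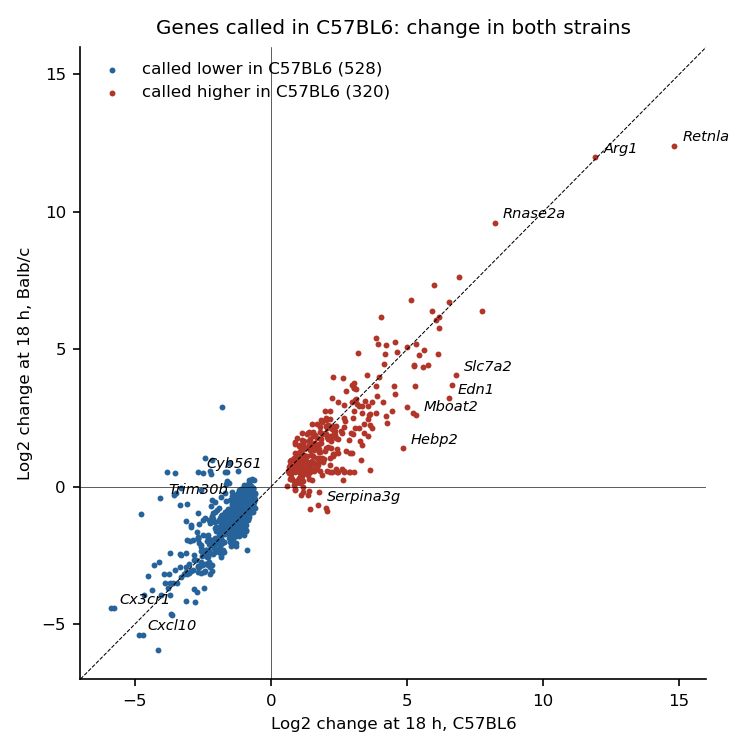
Log2 change after 18 h of IL-4 in Balb/c (vertical axis) against that in C57BL6 (horizontal axis) for the 848 genes called in C57BL6; red genes rose and blue genes fell there, and the dashed line marks equal change. Most genes lie in the quadrants of equal sign, and Hebp2 and Slc7a2 lie below the line.

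The test of the strain difference in the 18 h effect called no gene (0.0%) with limma, while 960 genes had an unadjusted p below 0.05. Other settings called between 0 and 4 genes. Hebp2 had the smallest p among the named genes: it stood at -3.05 and -3.12 in mock and 1.81 and 1.69 at 18 h in C57BL6, and at 1.50 and 1.11 in mock and 2.93 and 2.51 at 18 h in Balb/c, so its change was 4.84 against 1.42 (difference -3.42 ± 0.39, adjusted p = 0.195). Both 18 h arrays exceeded both mock arrays in C57BL6. Slc7a2, near background in C57BL6 mock, stood at -0.80 and -0.48 at 18 h in C57BL6 and at -4.34 and -4.78 in mock and -0.06 and -0.93 at 18 h in Balb/c (adjusted p of the difference 0.425). Trim30b changed by -4.07 and -0.40 (adjusted p = 0.508), and Tarm1 by 4.04 and 6.17 (adjusted p = 0.65). None of these differences passed the threshold, which does not show that the strains responded alike.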

How the data were processed

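Single-colour (Cy3) Agilent whole-genome mouse arrays were read from 12 samples. Per the file headers, the deposited scanner files give each spot's processed signal as intensity in linear scanner units with a well-above-background flag (unit: other). The submitters' processing notes name Agilent Feature Extraction, version 9.5.1.1. The deposited value table holds a linear ratio per probe and served as an alternative.

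Control spots and outlier spots were left out. Log2 intensities were averaged over spots of a probe and scaled by subtracting the 75th percentile within each array. Of the kept probes, 17254 were named through a transcript accession, 3848 through a symbol and 1808 through an older symbol in RefSeq GRCm38.p6, and 3706 kept the file's name. The brightest kept probe stood for its gene. Of 323 called genes with several probes, 18 had probes that differed in sign.

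limma 3.58.1 in R 4.3.3 fitted 6 group means over 12 arrays (6 residual and 2.08 prior degrees of freedom), with Benjamini-Hochberg adjustment; the procedure was tested on simulated data. Named were called symbols without overlap: the 30 largest rises and falls, 12 bounds on each side, and up to 8 called and 4 uncalled members (brightest) of each of 54 lists and 12 marker lists; fixed genes; and up to 12 genes on each side of the time comparison. List counts cover members that passed the background filter. Members and lists were chosen with earlier results of these data known. Few arrays limit the precision. The count over the interferon receptor pathway list is not reported here.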

Additional observations from a re-analysis of the deposited data

How the results depend on the processing

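The 848 calls at 18 h and the 168 calls between times came to 1275 and 880 with array weights, 468 and 54 without a filter on dim probes, 132 and 0 with normexp background correction, and 504 and 0 with only the arrays compared. Between-time calls came to 92 with median scaling and 254 with the slide as a block. Normexp left 4449 genes at 18 h and 1055 between times at an unadjusted p below 0.05. Leaving out 1 array gave 236 to 375 calls at 18 h, 0 between times and 0 to 4 for the strain difference, which had 1 call with median scaling and 2 with the slide block. Under normexp the median change of all genes was -0.38, and these genes turned their direction: Scn3a (-0.19), Scn1a (-0.028), Pecam1 (-0.67), Lipn (-0.77), Rnase2b (-2.21), Olr1 (-1.93), Itgb8 (-1.0003), Tgfa (-1.81), Serpina3n (-2.12), Aqp1 (-0.33), Fzd1 (-0.17), Chrna5 (-0.32) and Olfr1370 (-1.94); the cause was not tested. With the replicate number as a block (replicate block), there were 3322 and 1272 calls and 0 for the strain difference. With that block Cd74, H2-Ab1 and H2-DMb1 were called at unchanged values (adjusted p = 0.018, 0.0394 and 0.0236). Deviations of mock and 18 h arrays of the same number correlated at 0.327, and the 6 pairs of groups within a strain at 0.167 to 0.664; each group has only 2 numbers, and the labels do not say that a number marks an experiment. Other scalings, probe filters, probe averaging and the deposited ratios gave 597 to 821 calls at 18 h. Genes near background have bounds only.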
